A study of Mus musculus with 15 samples.

Results

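The genes described here are the core members of the AP-1 transcription factor and 3 further genes of the immediate early and stress response. They were chosen by gene name, as Fos, Fosb, Fosl1, Fosl2, Jun, Junb, Jund, Egr1, Atf3 and Maff. These are 10 of the 55359 genes in the expression matrix. AP-1 is a dimer of a Jun family protein with a Fos family protein, or with a relative of the ATF or Maf families, and it binds the DNA letters TGACTCA. Fos, Fosb, Jun, Junb, Egr1 and Atf3 are classical immediate early genes, whose transcription starts within minutes of a growth factor, serum or stress signal and whose mRNAs are short-lived. Fosl1, Fosl2 and Jund are AP-1 subunits with slower or steadier expression, and Fosl1 is known for its role downstream of the RAS and ERK pathway in invasive tumors.

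RNA was sequenced after poly-A selection from 15 mouse samples, 3 in each of 5 groups. 46LCNEC is a line from a large cell neuroendocrine carcinoma and 57SCLC a line from a small cell lung carcinoma, both raised in the lungs of QKO mice, whose conditional alleles include floxed Rb1 and Trp53, on an Rbl1-null background. Cre came from an adenovirus given into the trachea, driven by the CMV promoter for 46LCNEC and by the keratin K5 promoter for 57SCLC. 46LCNEC_cell were 3 dishes (A, B and C) of an adherent monolayer at passage 17, and 57SCLC_cell were 3 flasks (A, B and C) of floating aggregates at passage 11. 46LCNEC_allo (tumors 312, 319 and 321) and 57SCLC_allo (tumors 275, 316 and 317) were tumors grown under the skin of immunocompetent QKO mice from the same passages, mixed with Matrigel at injection, and hold host blood vessels, stroma and immune cells. Lung was normal tissue from littermates of the recipients (CT3, CT4 and CT5). Each tumor type is represented by 1 line, so tumor type and line cannot be told apart, nor can line and culture form (adherent or floating). The 3 dishes or flasks of a line are not separate tumors, and p-values for them measure only the spread between these cultures.

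The stretches of promoter below are shown because they hold the matches found near the starts of these genes to elements known from the regulation of immediate early genes. The 500 bases before the canonical start of each gene in release 39 of the GENCODE annotation (build GRCm39) were searched on both strands, in 9 of the 10 genes, for TGACTCA, TGACGTCA, TGACATCA, GCGTGGGCG and the CArG box, the element bound by serum response factor. Capitals mark each match, read 5′ to 3′ on the strand of the gene, with 20 bases shown on the outer sides. The Fos stretch is chr12:85520335-85520384 (plus strand), the Fosb stretch chr7:19044213-19044262 (minus strand) and the Jun stretch chr4:94940477-94940524 (minus strand). The Jund stretch is chr8:71151365-71151412 (plus strand) and the Maff stretch chr15:79231612-79231718 (plus strand).
Fos: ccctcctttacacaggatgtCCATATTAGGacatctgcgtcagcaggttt
Fosb: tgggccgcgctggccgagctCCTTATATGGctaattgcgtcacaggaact
Jun: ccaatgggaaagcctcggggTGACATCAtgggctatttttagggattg
Jund: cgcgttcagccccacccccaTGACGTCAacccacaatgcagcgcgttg
Maff: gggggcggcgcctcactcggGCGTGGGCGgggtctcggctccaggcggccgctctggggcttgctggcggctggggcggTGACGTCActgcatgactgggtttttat
A CArG box was found in Fos, 303 to 294 bases before the start, and in Fosb, 266 to 257 bases before it, and in 2.76% of the 21770 protein-coding promoters of the same length. TGACATCA was found in Jun, 45 to 38 bases before the start, and in 3.72% of all promoters. TGACGTCA was found in Jund, 214 to 207 bases before the start, in Maff, 29 to 22 bases before it, and in 1.96% of all promoters. GCGTGGGCG, a sequence that EGR1 binds, was found in Maff, 88 to 80 bases before the start, and in 0.730% of all promoters, and overlaps none of the other matches. TGACTCA was found in none of the 9 genes and in 7.57% of all promoters. A match describes the letters in this window and is not evidence that a factor binds there.

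All 10 genes had more than 3 reads in all 15 samples and passed the filter of 10 normalized counts in 3 samples in every comparison. The reads counted ranged from 9480244 (tumor 275) to 44876572 (flask C of 57SCLC_cell) per sample. The sum of 10 alveolar epithelium markers was 266871 to 354278 normalized counts in Lung and 1288 to 4056 in the other samples. Of 10 neuroendocrine markers, 10 were higher than in lung in 57SCLC_cell and in 57SCLC_allo. In the 46LCNEC line, most of these markers were not higher at the RNA level than in lung. Of 8 tested against lung, 2 were higher and 6 lower in 46LCNEC_cell, and 1 was higher and 5 lower in 46LCNEC_allo. Ncam1, at 28614 to 31510.0 normalized counts in 46LCNEC_cell and 3058 to 7384 in 46LCNEC_allo, carried nearly all of that list there, while Chga, Insm1 and Calca had group means between 1.92 and 10.6. By antibody staining, the paper reports NCAM, SSTR2 and CGRP in cells of its lines, and chromogranin A and CGRP in the subcutaneous tumors. The values here are of RNA and do not measure these proteins. The sum of 8 fibroblast markers was 84982 to 95985 in 46LCNEC_cell, above the 31528 to 36873 of Lung. Gene by gene, 2 of the 8 were higher and 3 lower than in lung, with a median log2 fold change of -0.093. The higher sum thus does not hold for the list as a whole. Ccdc85b overlaps Fosl1, Prdx2 overlaps Junb and the long noncoding RNA Junos overlaps Jun, each on the opposite strand, and the strand setting of the counting is not stated. Ccdc85b was at 4998 to 5252 normalized counts in 46LCNEC_cell, 3424 to 4711 in 46LCNEC_allo, 931 to 1021 in 57SCLC_cell and 1561 to 1809.7 in 57SCLC_allo, so that these 4 groups were in the same order as for the means of Fosl1. In Lung it was at 3633 to 4063, where Fosl1 was at 12.9 to 35.9. The part of reads from the overlapping genes was not tested.

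Fos, the partner of Jun in the classical AP-1 dimer (chr12:85520658-85524047), stood highest in normal lung. The normalized counts were 277, 142 and 159.9 in the 46LCNEC_cell dishes and 75.3, 65.7 and 77.6 in the 57SCLC_cell flasks. They were 556, 1792 and 634 in 46LCNEC_allo tumors 312, 319 and 321, 754, 364 and 575 in 57SCLC_allo tumors 275, 316 and 317, and 13527, 2077 and 31043 in lungs CT3, CT4 and CT5. All 3 lungs were above every other sample, the allografts of each line were above its cells, and the allografts of both lines overlapped. Fosb, a close relative of Fos with the same partners (chr7:19036621-19043976), also had its highest values in lung. It had 201, 131 and 144 normalized counts in 46LCNEC_cell, 212, 469 and 219 in 46LCNEC_allo, 59.5, 62.1 and 47.9 in 57SCLC_cell, 229.8, 96.3 and 136 in 57SCLC_allo and 2914, 364 and 9338 in Lung. Lung CT4 lay below tumor 319 for Fosb, so the lungs and the 46LCNEC_allo tumors overlapped.

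Fosl1, which encodes FRA-1 (chr19:5497575-5505974), was the gene of the group that separated the lines most. The 46LCNEC_cell dishes had 2109, 1569 and 1625 normalized counts and the 46LCNEC_allo tumors 823, 1741 and 678. The 57SCLC_cell flasks had 16.4, 17.5 and 17.7, the 57SCLC_allo tumors 69.4, 62.3 and 98.7 and the lungs 24.7, 35.9 and 12.9. Every 46LCNEC sample lay above every other sample, and the 57SCLC_cell flasks lay within the range of the lungs. Fosl2, which encodes FRA-2 (chr5:32292707-32315186), had 8841, 7894 and 8850.4 normalized counts in 46LCNEC_cell and 10272, 15356 and 6330.0 in 46LCNEC_allo. It had 4045, 3956 and 3055 in 57SCLC_cell, 3263, 3263 and 3485 in 57SCLC_allo and 3259.7, 2909 and 3947 in Lung. The 46LCNEC samples were again above all others, while the 57SCLC samples and the lungs overlapped.

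Jun, the best known Jun subunit and a target of JNK (chr4:94937271-94940459), was lowest in 46LCNEC_cell. The normalized counts were 3381, 2024 and 1949.7 in 46LCNEC_cell, 5324, 10744 and 6407 in 46LCNEC_allo, 6241, 6039.5 and 5895 in 57SCLC_cell and 6487, 9635 and 7039 in 57SCLC_allo. The lungs had 28193, 11823 and 35781, all above the other 12 samples. Junb, a Jun subunit that can restrain Jun (chr8:85701113-85705359), ran the other way between the lines, with 16427, 12980.2 and 13533 in 46LCNEC_cell and 913, 910.1 and 835 in 57SCLC_cell. The 46LCNEC_allo tumors had 5803, 7437 and 6639.7, the 57SCLC_allo tumors 3835, 2431 and 3231 and the lungs 18463, 5995 and 33513. The 4 groups of the lines did not overlap for Junb, in the order 46LCNEC_cell, 46LCNEC_allo, 57SCLC_allo and 57SCLC_cell, and the lungs overlapped with both 46LCNEC groups. Jund, the most steadily expressed Jun subunit (chr8:71151599-71153265), had 1694, 1463 and 1551 in 46LCNEC_cell, 2709, 3563 and 2877 in 46LCNEC_allo, 3605, 3332 and 3447 in 57SCLC_cell and 3888, 3900.0 and 3715 in 57SCLC_allo. The lungs had 7790.0, 6649 and 11940.2, above all other samples, and the 46LCNEC_cell dishes were below all others.

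Egr1, a zinc finger factor induced through ERK and serum response factor, had 13317, 6329 and 5649.9 normalized counts in 46LCNEC_cell and 3830.4, 8244 and 3736 in 46LCNEC_allo. The 57SCLC_cell flasks had 301, 266 and 349, the 57SCLC_allo tumors 2229, 1539 and 1824 and the lungs 10858, 1396 and 27097. The lungs spanned the values of all groups except 57SCLC_cell, which was below every other sample. Atf3, a stress-induced factor that dimerizes with Jun proteins (chr1:190902493-190950241), had 503, 455 and 472 in 46LCNEC_cell, 219.9, 946 and 263 in 46LCNEC_allo, 383, 342 and 647 in 57SCLC_cell, 962, 1267 and 985 in 57SCLC_allo and 1306, 415 and 7827 in Lung. Among the samples of the lines, the 57SCLC_allo tumors were the highest, just above tumor 319. Maff, a small Maf protein without an activation domain of its own (chr15:79230821-79243276), had 3255, 3202 and 3365 in 46LCNEC_cell, 1811, 3364 and 1345 in 46LCNEC_allo, 1200.1, 1198 and 1486 in 57SCLC_cell, 3007, 3668 and 3139 in 57SCLC_allo and 1394, 1259 and 2582 in Lung. Maff was thus high in the 46LCNEC dishes and the 57SCLC tumors, and the 46LCNEC_allo tumors overlapped with the lungs.

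**Figure D1:**
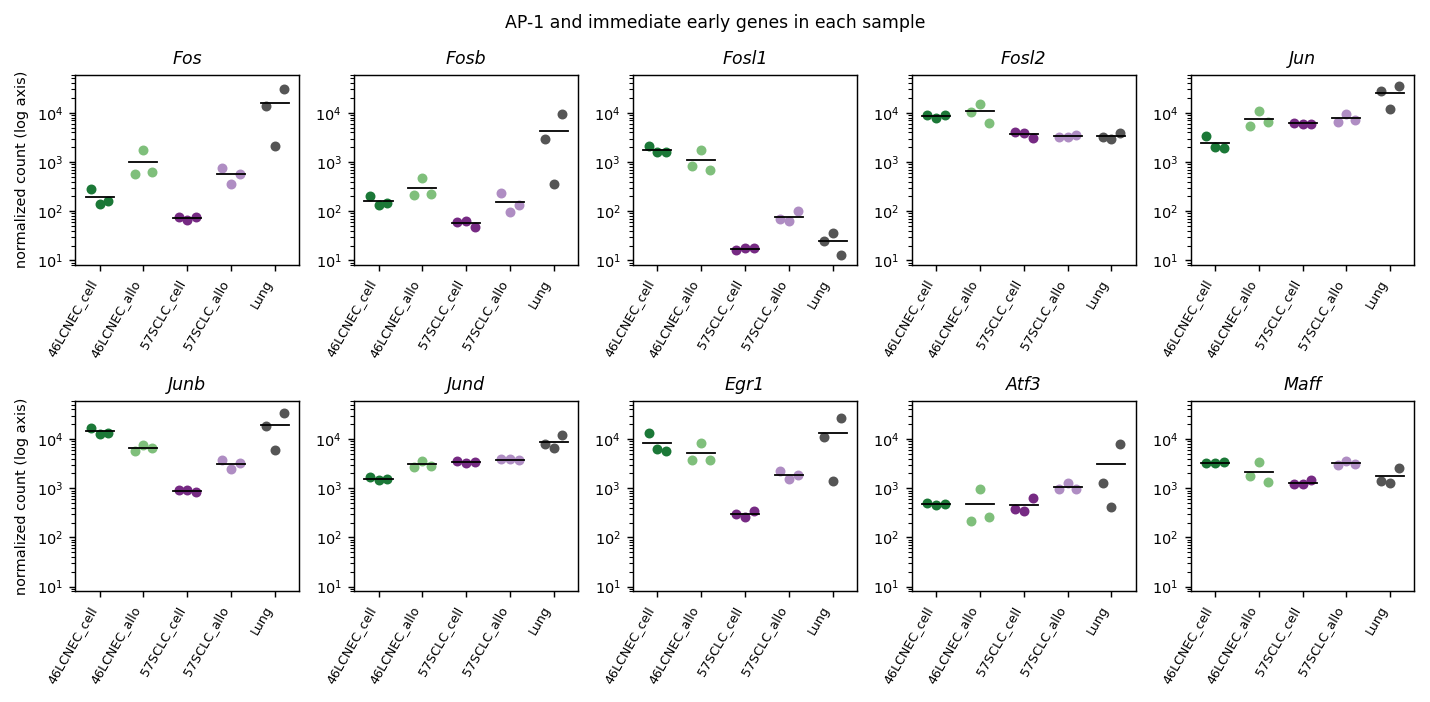
Normalized counts (log axis) of the 10 genes in each of the 15 samples, as points in the order of the replicates named in the text, with the mean of each group as a line. Fosl1 lies between 678 and 2109 in the 46LCNEC samples and at or below 98.7 in all others, and the 3 lungs are spread widely for Fos, Fosb, Egr1 and Atf3.

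Levels were compared between subunits per kb of exon, with the exon lengths of release 39 of GENCODE. In lung, Fos made up 82.2% ± 9.50 (SD, n = 3) of the Fos family's normalized counts per kb. In 46LCNEC_cell, Fosl1 made up 48.2% ± 2.53 and Fosl2 45.9% ± 3.71, and Fos 4.47% ± 1.12. In 57SCLC_cell, Fosl2 alone made up 87.8% ± 1.91. The share of Fos was higher in the allografts than in the cells of both lines, at 19.9% ± 5.10 in 46LCNEC_allo and 37.7% ± 7.69 in 57SCLC_allo. Fosl1 made up 26.0% ± 1.48 in 46LCNEC_allo and 6.09% ± 1.32 in 57SCLC_allo. Summed over the Fos family, the level per kb was 1613 to 2037 in 46LCNEC_cell and 343 to 439 in 57SCLC_cell, with 1237 to 15047 in Lung. These shares are given as descriptions, and no test was run on them.

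In the Jun family, Junb made up 77.9% ± 0.946 of the normalized counts per kb in 46LCNEC_cell and 8.56% ± 0.362 in 57SCLC_cell. Jun and Jund made up the rest of the family in 57SCLC_cell, at 43.7% ± 0.530 and 47.7% ± 0.884. In the allografts, the Junb share was 40.5% ± 3.72 for 46LCNEC and 22.1% ± 5.59 for 57SCLC. In lung the shares were 37.5% ± 3.65 for Jun, 34.8% ± 9.46 for Junb and 27.7% ± 9.83 for Jund. The summed Jun family per kb was 6964 to 8975 in 46LCNEC_cell, 4267 to 4503 in 57SCLC_cell and 10214 to 32458 in Lung.

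**Figure D2:**
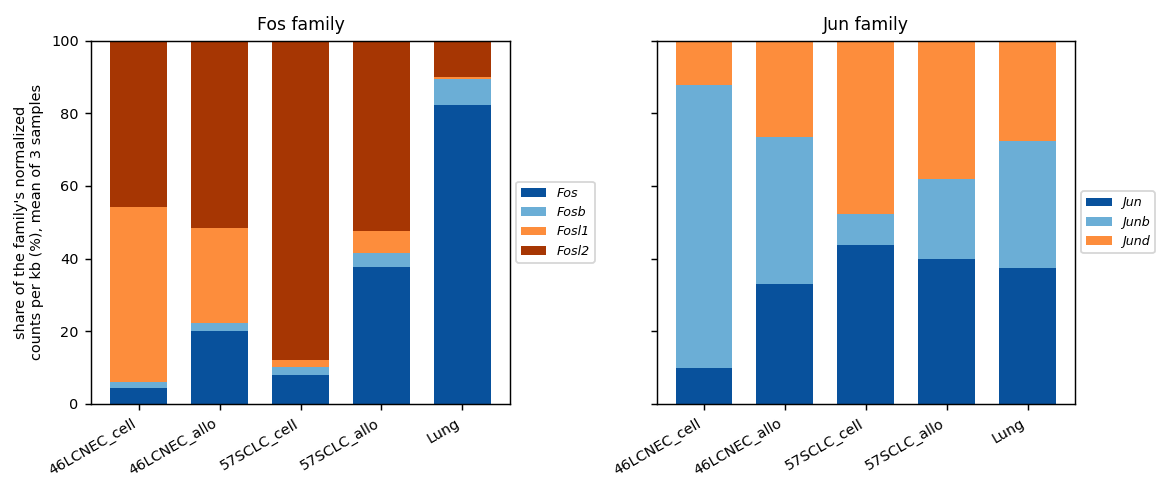
Stacked bars of the share (%) of each subunit in the normalized counts per kb of its family, mean of 3 samples per group, with no error bars drawn. Junb takes 77.9% of the Jun family in 46LCNEC_cell and 8.56% in 57SCLC_cell, and Fosl2 takes 87.8% of the Fos family in 57SCLC_cell.

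The 3 normal lungs differed widely in these genes. Of the 9 genes with a mean of at least 50 normalized counts in lung (all but Fosl1), 9 had the order CT4 below CT3 below CT5, an order found in 13.5% of the 14851 genes at that level. The ratio of CT5 to CT4 was 25.7 for Fosb, 19.4 for Egr1, 18.9 for Atf3 and 14.9 for Fos. It was 5.59 for Junb, 3.03 for Jun, 2.05 for Maff, 1.80 for Jund and 1.36 for Fosl2. Fosb, Egr1, Atf3, Fos and Junb thus differed more between these lungs than Jund and Fosl2, the steadier subunits. The median log2 ratio of CT5 to CT4 was 2.48 for the 9 genes and 0.01 for all 14851 genes, and 5 of the 9 were at least 4-fold higher in CT5, against 0.249% of all genes. A list of 30 other immediate early genes followed, with 23 of 27 at that level in the same order and a median log2 ratio of 1.05. Nr4a1, an orphan nuclear receptor named here after its values were seen, had 13296, 1367 and 36564 normalized counts in CT3, CT4 and CT5.

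Fosl1 ran against this order, with its highest lung value in CT4 at 35.9. Endothelium markers were in the order of the 9 genes but within a narrow range, and the other marker lists given here were in other orders. Alveolar epithelium markers summed to 266871 normalized counts in CT3, 314233 in CT4 and 354278 in CT5, endothelium markers to 123113, 111059 and 124020, and macrophage markers to 90608, 102523 and 120778. Red blood cell markers summed to 14355, 37079 and 16878, with the highest value in CT4. Fat markers summed to 2350, 1020 and 207 and skeletal muscle markers to 1070, 807 and 104, both lowest in CT5. The part of tissue makeup in the spread of the lungs was not tested.

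**Figure D3:**
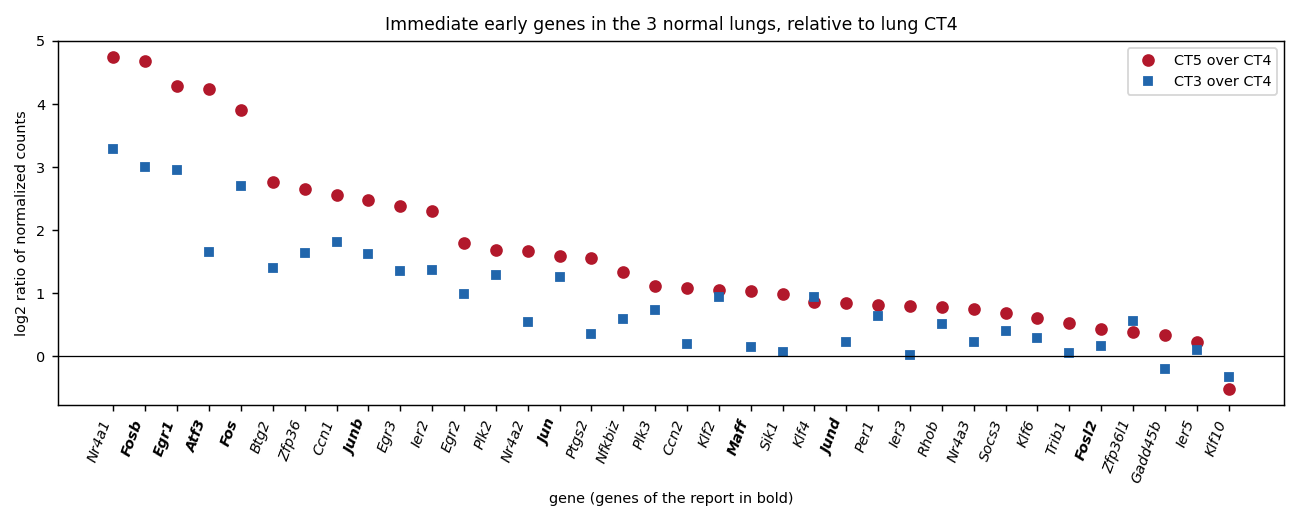
Log2 ratio of normalized counts of lung CT5 (circles) and lung CT3 (squares) to lung CT4, for immediate early genes with a mean of at least 50 normalized counts in lung, sorted by the first ratio, with the genes described here in bold. Fosb, Egr1, Atf3 and Fos reach ratios of 25.7, 19.4, 18.9 and 14.9 in CT5, and Jund and Fosl2 have 1.80 and 1.36.

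Within the 46LCNEC_allo group, tumor 319 had the highest value for 10 of the 10 genes, and it was the highest of the 3 tumors for 36.0% of all 13534 genes with a mean of at least 50 there. The range of the 3 tumors was over 2-fold for 8 of the 10 genes and for 17.9% of all genes. Among the other immediate early genes, tumor 319 was the highest for 17 of 28. Tumor 319 also had the lowest sum of macrophage markers of its group (49750.1 normalized counts, against 69195 and 109673 in tumors 312 and 321). Its sum of endothelium markers was also the lowest (8466, against 12566 and 11600 in tumors 312 and 321). Its sums of proliferation markers (35560, against 28210 and 22656) and of neuroendocrine markers (7412, against 3098 and 4121) were the highest. Its sum of epithelium markers was the lowest (141, against 226 and 257 in tumors 312 and 321). In the 46LCNEC_cell dishes, epithelium markers summed to 6651 to 7681. The sum of fibroblast markers in tumor 319 lay between those of the other tumors. The part of cell makeup in the values of tumor 319 was not tested. In 46LCNEC_cell, dish A was the highest for 8 of the 10 genes, against 40.0% of all genes, with Egr1 at 13317 in dish A and 6329 and 5649.9 in the others. The 57SCLC_cell flasks had no gene of the 9 at that level with a range over 2-fold.

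The first question put to the data was how the lines differed. In cell culture, 7 of the 10 genes were lower and 2 were higher in 57SCLC_cell than in 46LCNEC_cell, where 22.2% of all 16920 genes tested were lower and 23.9% higher. Genes were called with limma on the log2(normalized count + 1) scale, where the Benjamini-Hochberg adjusted p over all genes tested was 0.01 or less and the means differed by 1 or more on that scale, and each ± after a log2 value is its SE. Fosl1 was lower by the widest margin, 96.4-fold (log2 fold change -6.59 ± 0.15 (SE), adjusted p = 1.36e-08). Egr1 was 25.7-fold lower (-4.68 ± 0.30 (SE), adjusted p = 2.51e-06) and Junb 16.1-fold lower (-4.01 ± 0.10 (SE), adjusted p = 1.91e-08). Fos (-1.33 ± 0.26), Fosb (-1.46 ± 0.21), Fosl2 (-1.22 ± 0.12) and Maff (-1.34 ± 0.10) were lower by smaller steps, with adjusted p between 5.27e-06 and 0.00174. Jun (1.35 ± 0.20 (SE), adjusted p = 0.000337) and Jund (1.14 ± 0.08 (SE), adjusted p = 3.81e-06) were the ones higher in 57SCLC_cell. Atf3 did not pass (-0.12 ± 0.22 (SE), adjusted p = 0.653), with a 95% interval of -0.64 to 0.41. The count stayed at 9 of 10 without any single dish or flask. Fos and Fosb were not called in the model of all 15 samples (adjusted p = 0.112 and 0.116), nor Fosl2, at -0.99, under library size scaling. The median log2 fold change of the 10 genes was -1.34, against 0.00028 for all genes tested.

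Between the allografts, 4 of the 10 genes were lower and 0 higher in 57SCLC_allo than in 46LCNEC_allo, where 14.2% of all 17502 genes tested were lower and 16.1% higher. The 4 were Fosl1 (-3.70 ± 0.38 (SE), adjusted p = 0.000282), Fosl2 (-1.58 ± 0.30 (SE), adjusted p = 0.00398), Junb (-1.08 ± 0.19 (SE), adjusted p = 0.00266) and Egr1 (-1.41 ± 0.32 (SE), adjusted p = 0.00923). Fos (-0.67 ± 0.49), Fosb (-0.95 ± 0.44), Jun (0.09 ± 0.28), Jund (0.34 ± 0.12), Atf3 (1.48 ± 0.53) and Maff (0.69 ± 0.32) did not pass. Fosl1 alone was called whichever tumor was left out. Fosl2 was not called without tumor 312, 275, 316 or 317 (adjusted p up to 0.0202), Junb not without tumor 319, 316 or 317, and Egr1 not without tumor 312, 275, 316 or 317 (adjusted p up to 0.0405). This left 2 genes without tumor 312 or 275 and 1 gene without tumor 316 or 317. The share of all genes called was 30.4% with all samples, and 26.4%, 24.2%, 22.9% and 23.3% without these tumors, in this order. Junb was also not called under library size scaling (-0.82) or in the model of all 15 samples, and Egr1 not under library size scaling, TMM scaling, a pseudocount of 0.1, edgeR or the model of all 15 samples. Without tumor 319, Atf3 was called higher in 57SCLC_allo, at 2.14 (adjusted p = 0.000314), and so was Maff, at 1.06 (adjusted p = 0.00291). Of all genes called in this comparison, 53.1% were higher in 57SCLC_allo, and 64.5% under library size scaling, which moved the median of all genes by 0.26 on the log2 scale.

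Growth as an allograft was then compared with culture in each line. In 57SCLC, 6 of the 10 genes rose and 0 fell from cells to allografts, where 14.4% of all 17078 genes tested rose and 2.29% fell. Fos rose 7.35-fold (log2 fold change 2.88 ± 0.26 (SE), adjusted p = 4.89e-05) and Egr1 6.06-fold (2.60 ± 0.16 (SE), adjusted p = 5.34e-06). Fosl1 (2.07 ± 0.26 (SE), adjusted p = 0.000348), Junb (1.81 ± 0.16 (SE), adjusted p = 3.89e-05), Maff (1.34 ± 0.12 (SE), adjusted p = 4.45e-05) and Atf3 (1.27 ± 0.23 (SE), adjusted p = 0.00324) also rose. The call of Atf3 was lost without flask A or without tumor 275, 316 or 317, with adjusted p from 0.0121 upward, and Fosb (1.35 ± 0.32 (SE), adjusted p = 0.0103) was called without tumor 316 (1.64, adjusted p = 0.00582). Jun (0.33 ± 0.14), Jund (0.15 ± 0.07) and Fosl2 (-0.13 ± 0.12) did not pass, and the 95% interval of Fosl2 ran from -0.40 to 0.13. In the model of all 15 samples, Egr1 (adjusted p = 0.0154) and Atf3 (adjusted p = 0.233) were not called. The median over the 10 genes was 1.34, against 0.0044 for all genes tested.

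In 46LCNEC, 2 of the 10 genes rose and 1 fell from cells to allografts, where 14.4% of all 16375 genes tested rose and 8.45% fell. Fos rose 4.63-fold (2.21 ± 0.47 (SE), adjusted p = 0.00638) and Jun 3.02-fold (1.59 ± 0.31 (SE), adjusted p = 0.00417), and Junb fell (-1.11 ± 0.14 (SE), adjusted p = 0.000681). Jund, at 0.95 ± 0.13 (SE), adjusted p = 0.000948, passed the threshold of p but not that of size. Fosb (0.84 ± 0.34), Fosl1 (-0.82 ± 0.34), Fosl2 (0.23 ± 0.29), Egr1 (-0.67 ± 0.41), Atf3 (-0.32 ± 0.51) and Maff (-0.70 ± 0.30) did not pass. Without tumor 319, 5 genes were called, with Fosl1 (-1.23, adjusted p = 0.00115) and Maff (-1.07, adjusted p = 0.00101) lower in the allografts. The call of Fos was lost without dish A, B or C (adjusted p up to 0.0300) and that of Jun without dish B or C (adjusted p up to 0.0223), while without dish A or tumor 312 Jund was called (1.01 and 1.03). Without dish B or without dish C, 1 gene was left. The share of all genes called fell there too, from 22.8% with all samples to 15.1% and 14.3%. It was 24.3% without tumor 319. In the model of all 15 samples, Fos (adjusted p = 0.0171) and Junb (adjusted p = 0.0330) were not called.

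The allografts hold host cells that the cultures lack, and in bulk tissue fewer cells of a type and less RNA per cell cannot be told apart. The sum of 8 fibroblast markers was 27.1 to 32.2 normalized counts in 57SCLC_cell and 43210 to 66635 in 57SCLC_allo, and 84982 to 95985 in 46LCNEC_cell and 449565 to 916053 in 46LCNEC_allo. The sum of 8 macrophage markers was 310.0 to 343 in 57SCLC_cell and 22314 to 40941 in 57SCLC_allo, with 332 to 387 in 46LCNEC_cell and 49750.1 to 109673 in 46LCNEC_allo. Of the macrophage markers, 3 of 8 in 57SCLC_cell and 6 of 8 in 46LCNEC_cell were at or under 3 reads in all 3 cultures. The part of the host cells in the changes of Fos, Fosl1, Junb, Egr1, Atf3, Maff and Jun was not tested.

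The difference between the lines in their response was tested itself, as the change from cells to allografts in 57SCLC minus that in 46LCNEC over 12 samples. It was called higher for 4 of the 10 genes and lower for 0, where 10.8% of all 18440 genes tested were higher and 6.78% lower. Egr1 had a difference of 3.27 ± 0.48 (SE), adjusted p = 0.000297, Junb of 2.92 ± 0.22 (SE), adjusted p = 1.47e-06, Fosl1 of 2.89 ± 0.43 (SE), adjusted p = 0.000319 and Maff of 2.04 ± 0.35 (SE), adjusted p = 0.000905. These were called without any single sample as well, but Egr1 was not called in the model of all 15 samples (adjusted p = 0.0243). For Junb, the change was 1.81 in 57SCLC and -1.11 in 46LCNEC, both called, in opposite directions. Fos, which rose in both lines, had a difference of 0.67 ± 0.59 (SE), adjusted p = 0.402, with a 95% interval of -0.62 to 1.95. Jun (difference -1.26 ± 0.37 (SE), adjusted p = 0.0187) was called without dish A (-1.52), without tumor 312 (-1.48) and with DESeq2, and Atf3 (1.60 ± 0.62 (SE), adjusted p = 0.0606) without tumor 319 (2.25).

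**Figure D4:**
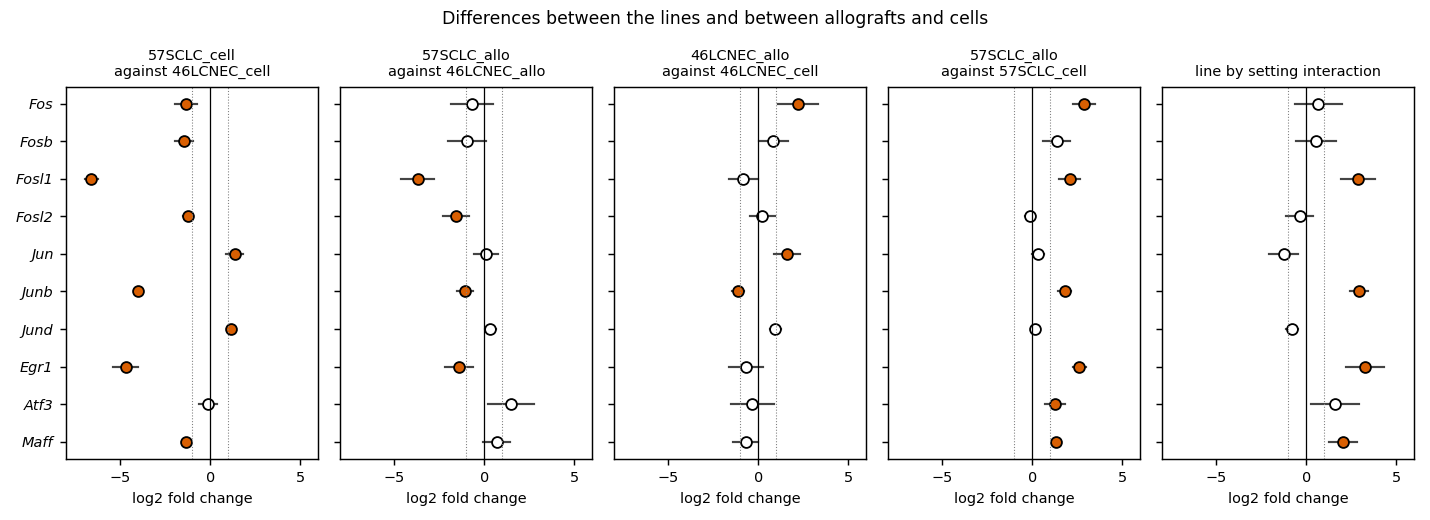
Log2 fold change (limma, log2(normalized count + 1) scale) of the 10 genes between the lines, between allografts and cells, and for the difference of those changes (57SCLC minus 46LCNEC), with 95% intervals as lines, filled points for called genes and dotted lines at -1 and 1. Fosl1 lies at -6.59 between the cells of the lines and Junb at 1.81 and -1.11 in the 2 changes to allografts.

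Against normal lung, the 4 comparisons share the same 3 lungs, so their values are set side by side and are not independent. Fos was lower in 46LCNEC_cell (-5.69 ± 0.81 (SE), adjusted p = 0.00014), 57SCLC_cell (-7.02 ± 0.86 (SE), adjusted p = 0.000133) and 57SCLC_allo (-4.14 ± 0.87 (SE), adjusted p = 0.00308), and did not pass in 46LCNEC_allo (-3.48 ± 1.00 (SE), adjusted p = 0.0214). Jund was lower in all 4 groups, at -2.44 ± 0.19 in 46LCNEC_cell, -1.49 ± 0.23 in 46LCNEC_allo, -1.30 ± 0.20 in 57SCLC_cell and -1.15 ± 0.19 in 57SCLC_allo, with adjusted p up to 0.00161. Fosl1 was higher in 46LCNEC_cell (74.3-fold, 6.22 ± 0.32 (SE), adjusted p = 1.22e-07), in 46LCNEC_allo (42.0-fold, 5.39 ± 0.49 (SE), adjusted p = 0.000152) and in 57SCLC_allo (3.23-fold, 1.69 ± 0.40 (SE), adjusted p = 0.00579). In 57SCLC_cell, Fosl1 did not pass (-0.38 ± 0.36 (SE), adjusted p = 0.363). Fosl2 was higher in 46LCNEC_cell (1.35 ± 0.11 (SE), adjusted p = 3.22e-06) and 46LCNEC_allo (1.58 ± 0.32 (SE), adjusted p = 0.00492).

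In 46LCNEC_cell, 2 of the 10 genes were higher and 4 lower than in lung, where 20.6% of all 18142 genes tested were higher and 35.0% lower. In 46LCNEC_allo, 2 were higher and 1 lower, where 13.4% of all 18033 genes tested were higher and 22.1% lower. In 57SCLC_cell, 0 were higher and 6 lower, where 21.1% of all 18467 genes tested were higher and 32.7% lower. In 57SCLC_allo, 1 was higher and 5 lower, where 18.9% of all 18517 genes tested were higher and 26.9% lower. The 6 lower in 57SCLC_cell were Fos, Jund, Fosb (-5.23 ± 1.02), Junb (-4.13 ± 0.54), Egr1 (-4.61 ± 0.94) and Jun (-1.92 ± 0.37). Those lower in 57SCLC_allo were Fos, Jund, Fosb (-3.89 ± 1.04), Junb (-2.31 ± 0.55) and Jun (-1.59 ± 0.38), and those lower in 46LCNEC_cell were Fos, Jund, Fosb (-3.78 ± 0.94) and Jun (-3.27 ± 0.38). Junb (-0.12 ± 0.51 (SE), adjusted p = 0.831) and Egr1 (0.07 ± 0.90 (SE), adjusted p = 0.944) did not pass between 46LCNEC_cell and lung, with 95% intervals of -1.27 to 1.03 and -1.98 to 2.13. Atf3 passed in none of the 4, at -1.76 ± 0.84, -2.09 ± 1.10, -1.88 ± 0.94 and -0.61 ± 0.91. Maff stood at 0.98 ± 0.23 (SE), adjusted p = 0.00306 in 46LCNEC_cell and 0.98 ± 0.25 (SE), adjusted p = 0.00838 in 57SCLC_allo, just under the threshold of size.

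Many calls against lung depended on single samples, both lungs and samples of the lines. Leaving out 1 sample left 2 in its group, and the share of all genes called moved too. In 46LCNEC_allo it was 35.6% with all samples, 27.8%, 27.5% and 28.1% without CT3, CT4 or CT5, and 32.0% to 38.7% without 1 tumor. In 57SCLC_allo it was 45.8% with all samples and 42.6% to 45.5% with 1 left out. Without lung CT4, Fos (-4.58), Fosb (-4.22), Jun (-2.15) and Junb (-1.92) were called lower in 46LCNEC_allo, and Fosl2 was lost (adjusted p = 0.0243), which took the count from 3 to 6. Fosl2 was also lost there without tumor 312, lung CT3 or lung CT5, which left 2 genes. In 46LCNEC_cell, the log2 fold change of Fos was -4.84 without CT5 and -6.79 without CT4, that of Fosb was -2.72 and -5.06, and Fosb was not called without dish A, B or C, CT3 or CT5 (adjusted p up to 0.0309). Without CT4, Atf3 was called lower in 46LCNEC_cell (-2.74, adjusted p = 0.00696) and Egr1 lower in 57SCLC_allo (-3.22, adjusted p = 0.000421). Maff was called higher without CT5 in 46LCNEC_cell (1.30) and in 57SCLC_allo (1.30). In 57SCLC_cell, Fosb, Jun and Egr1 were not called without CT3 (adjusted p = 0.0153, 0.0139 and 0.0186), which left 3 genes. The values of that comparison without CT4 and without CT5 were -8.12 and -6.17 for Fos, -6.51 and -4.17 for Fosb, and -5.82 and -3.68 for Egr1, and Junb was at -4.81 without CT4. In 57SCLC_allo, the same pair of values was -5.24 and -3.29 for Fos and -5.16 and -2.83 for Fosb, and Junb was at -2.999 without CT4. In 57SCLC_allo, 2 of the 6 calls were left without tumor 275 or tumor 316, and 1 without tumor 317, CT3 or CT5. Fosl1, Junb and Fosb were each lost there without any of these 5 samples, with adjusted p up to 0.0258, 0.0294 and 0.0438. Jun was lost without tumor 275, tumor 317, CT3 or CT5 (adjusted p up to 0.0315), Fos without tumor 316, tumor 317 or CT3 (adjusted p up to 0.0186), and Jund, at -0.91, without CT5. Under library size scaling, Fosb (-3.68), Jun (-1.38) and Jund (-0.95) were not called in 57SCLC_allo, and Maff (1.18) was. Fosb was also not called in 57SCLC_allo under TMM scaling (adjusted p = 0.0105) or a pseudocount of 0.1 (adjusted p = 0.0139), nor in 46LCNEC_cell under a pseudocount of 0.1 (adjusted p = 0.0103). Maff was called in 46LCNEC_cell under TMM scaling (1.11), edgeR (1.04) and DESeq2 (1.001), and in 57SCLC_allo under TMM scaling (1.06). Atf3 was called in 46LCNEC_cell with edgeR (-2.59), and Egr1 in 57SCLC_allo with DESeq2 (-2.76).

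**Figure D5:**
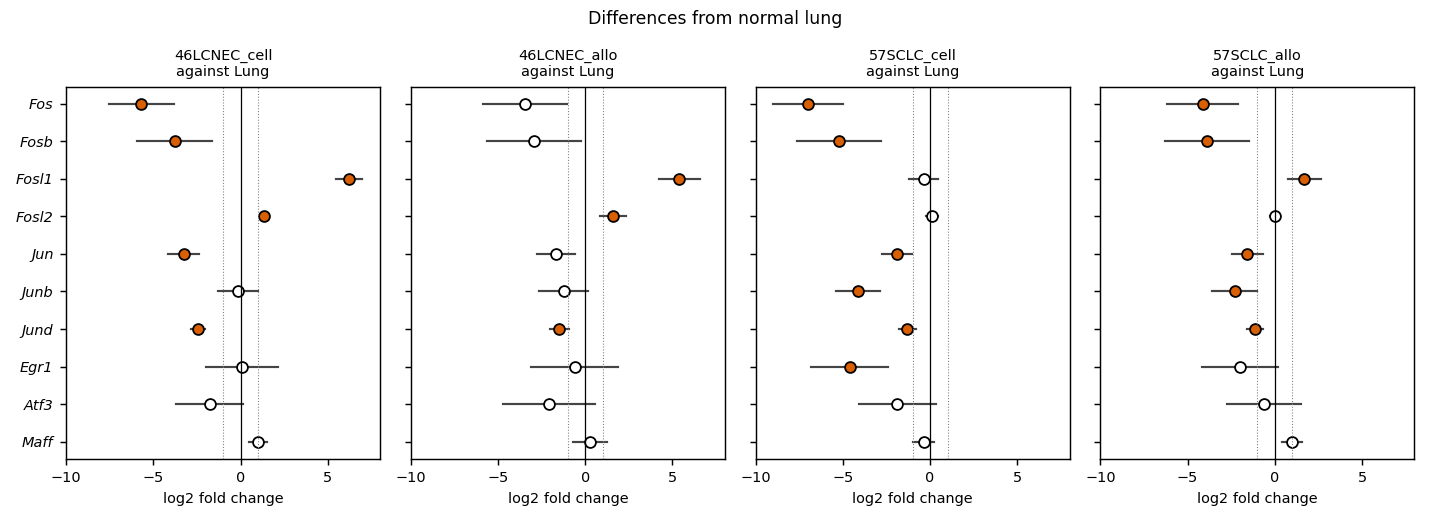
Log2 fold change (limma, log2(normalized count + 1) scale) of the 10 genes in each group of the lines against the same 3 normal lungs, with 95% intervals as lines, filled points for called genes and dotted lines at -1 and 1. Fosl1 is at 6.22 and 5.39 in the 46LCNEC groups, and the intervals of Fos, Fosb, Egr1 and Atf3 are wide.

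Among 30 other immediate early genes, 16 of 30 tested rose and 0 fell from 57SCLC cells to allografts, and 4 of 29 rose and 4 fell from 46LCNEC cells to allografts. The shares rising were 53.3% and 13.8%, against 14.4% of all genes tested in each line, so that of 46LCNEC was near all genes. The shares falling were 0% and 13.8%, against 2.29% and 8.45%. The medians were 1.19 and 0.16 on the log2 scale, against 0.0044 and -0.00069 for all genes tested. In 57SCLC_cell, 18 of 30 were lower and 5 higher than in 46LCNEC_cell, with a median of -1.49. These were 60% and 16.7%, against 22.2% and 23.9% of all genes tested. Ccn2, which encodes a matrix protein induced by serum and YAP, had no read in the 3 flasks of 57SCLC_cell and 12905 to 16801 normalized counts in 46LCNEC_cell, so that it was at least 8658-fold lower in the flasks, against a floor of 3 reads per library. Its relative Ccn1 had 12, 8 and 4 reads in the flasks (log2 fold change -12.85 ± 0.31 against 46LCNEC_cell). In 57SCLC_allo, Ccn2 reached 1958 to 2445 normalized counts. Npas4, a neuronal activity factor, was higher in 57SCLC_cell (3.60 ± 0.20) and in 57SCLC_allo (7.73 ± 0.34) than in the matching 46LCNEC group, and so was the antiproliferative gene Btg2 (3.44 ± 0.23 and 2.72 ± 0.14). Between the allografts, 4 of 30 were higher and 11 lower in 57SCLC (13.3% and 36.7%, against 16.1% and 14.2% of all genes tested), with Klf4 at -2.76 ± 0.29. In 46LCNEC, Zfp36l1 (5.95 ± 0.19) and Klf2 (3.67 ± 0.30) were higher in the allografts and Ccn1 (-3.08 ± 0.24) lower. Against lung, 12 of 29 were lower and 3 higher in 46LCNEC_cell (41.4% lower, against 35.0% of all genes tested), and 8 and 1 of 29 in 46LCNEC_allo (27.6% against 22.1%). In 57SCLC_cell, 22 of 30 were lower and 2 higher (73.3% lower, against 32.7% of all genes), and in 57SCLC_allo 16 and 3 of 30 (53.3% against 26.9%). The shares higher than lung in these 4 groups, in this order, were 10.3%, 3.45%, 6.67% and 10%. Those of all genes were 20.6%, 13.4%, 21.1% and 18.9%. Klf2, an endothelial and lymphocyte factor, was at -7.50 ± 0.24 in 46LCNEC_cell against lung.

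Of 26 genes known as AP-1 targets, 20 of 21 tested were lower and 0 higher in 57SCLC_cell than in 46LCNEC_cell, with a median log2 fold change of -6.01, against 0.00028 for all genes tested. Those lower were 95.2%, where 22.2% of all genes were lower and 23.9% higher. Of the 26, 8 were at or under 3 reads in all 3 flasks of 57SCLC_cell, and 3 in all 3 dishes of 46LCNEC_cell. A gene absent from the flasks passed the filter only through the other group and could not be called higher in the flasks. This also holds for the comparisons of the flasks with the allografts and with lung below, so these counts are not independent of the filter. Cd44, the hyaluronan receptor, had 4, 4 and 5 reads in the 57SCLC_cell flasks and 14365 to 16478 normalized counts in 46LCNEC_cell (-12.14 ± 0.12). Itga5, a fibronectin receptor subunit, had 6, 6 and 5 reads in the flasks (-12.22 ± 0.13). From 57SCLC cells to allografts, 18 of 21 rose and 1 fell, with a median of 3.72, against 0.0044 for all genes tested. These were 85.7% and 4.76%, against 14.4% and 2.29% of all genes. Spp1, which encodes osteopontin and is made by many macrophages, had 0, 1 and 1 reads in the flasks and 5191 to 10312 normalized counts in the tumors, and Cd44 rose by 8.27 ± 0.21. In 46LCNEC, 7 of 23 rose, among them the matrix proteases Mmp9 (7.11 ± 0.41) and Mmp14 (1.33 ± 0.14), and 7 fell, among them Ereg (-2.10 ± 0.14), an EGF receptor ligand, and Plaur (-2.11 ± 0.20), the urokinase receptor. Each share was 30.4%, where 14.4% of all genes rose and 8.45% fell. Between the allografts, 12 of 23 were lower in 57SCLC and 0 higher, with a median of -1.54, against 0.01 for all genes tested. Those lower were 52.2%, where 14.2% of all genes were lower and 16.1% higher. Against lung, 15 of 22 were higher and 3 lower in 46LCNEC_cell, 11 of 23 and 2 in 46LCNEC_allo, 1 of 20 and 17 in 57SCLC_cell, and 8 of 23 and 7 in 57SCLC_allo. The shares higher were 68.2%, 47.8%, 5% and 34.8%, against 20.6%, 13.4%, 21.1% and 18.9% of all genes. Those lower were 13.6%, 8.70%, 85% and 30.4%, against 35.0%, 22.1%, 32.7% and 26.9%, so the last was near that of all genes. The median in 57SCLC_cell against lung was -4.59, and -4.47 with the genes that had no read in the flasks at their bound. Several of these targets are also expressed by fibroblasts and macrophages, whose marker sums are given above, and their part was not tested.

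Of 33 upstream kinases, factors and feedback genes, 11 of 31 tested were lower and 2 higher in 57SCLC_cell than in 46LCNEC_cell (35.5% and 6.45%, against 22.2% and 23.9% of all genes tested). The ERK phosphatases Dusp6 (-4.35 ± 0.09) and Dusp5 (-6.12 ± 0.13) were among the lower, and the kinase genes Map3k1 (2.55 ± 0.12) and Mapk10 (3.01 ± 0.20) were the ones higher. Spry4, a feedback inhibitor of receptor signaling, had no read in the 57SCLC_cell flasks and 295 to 392 normalized counts in 46LCNEC_cell, so that it was at least 202-fold lower in the flasks. From 57SCLC cells to allografts, 8 of 31 rose (25.8%, against 14.4% of all genes) and 0 fell, with Dusp6 at 3.05 ± 0.14. In 46LCNEC 3 of 31 rose (9.68%, against 14.4%) and 1, the phosphatase gene Dusp4 (-1.91 ± 0.21), fell. The shares falling were 0% in 57SCLC and 3.23% in 46LCNEC, against 2.29% and 8.45% of all genes. Between the allografts, 9 of 31 were lower in 57SCLC (29.0%, against 14.2%) and 2 higher (6.45%, against 16.1%). The ETS factor Elk3 was at -2.73 ± 0.18 and Spry1 at -1.93 ± 0.13. Against lung, 6 of 31 were lower and 4 higher in 46LCNEC_cell and 3 and 1 in 46LCNEC_allo, where the shares lower (19.4% and 9.68%) were below the 35.0% and 22.1% of all genes. In 57SCLC_cell 14 were lower and 1 higher (45.2% lower, against 32.7%), and in 57SCLC_allo 9 and 1 (29.0%, against 26.9%). The shares higher in these 4 groups, in this order, were 12.9%, 3.23%, 3.23% and 3.23%. Those of all genes were 20.6%, 13.4%, 21.1% and 18.9%. Dusp1, the phosphatase that itself is an immediate early gene, was lower in 46LCNEC_allo than in lung (-3.44 ± 0.63).

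Of 23 other AP-1 and Maf family genes, 5 of 21 tested were lower and 4 higher in 57SCLC_cell than in 46LCNEC_cell, at 23.8% and 19.0% near the 22.2% and 23.9% of all genes tested. Mafa, known from pancreatic beta cells, was higher in 57SCLC_cell (5.73 ± 0.15), at 2833 to 4152 normalized counts against 61.5 to 69.5. Bach2, a repressor that pairs with small Maf proteins, was lower (-7.34 ± 0.30), as was Creb5 (-5.10 ± 0.33). Between the allografts 7 of 22 were lower in 57SCLC (31.8%, against 14.2% of all genes) and 1, Mafa, higher (5.04 ± 0.20). The share higher was 4.55%, against 16.1% of all genes. From cells to allografts, 4 of 22 rose and 1 fell in 46LCNEC, and 6 of 22 rose and 1 fell in 57SCLC. The shares rising were 18.2% and 27.3%, against 14.4% and 14.4% of all genes. Those falling were 4.55% in each line, against 8.45% and 2.29% of all genes. Against lung, 7 of 22 were lower and 1 higher in 46LCNEC_cell, 2 and 2 in 46LCNEC_allo, 10 and 3 in 57SCLC_cell, and 8 and 2 in 57SCLC_allo. The shares lower were 31.8%, 9.09%, 45.5% and 36.4%, against 35.0%, 22.1%, 32.7% and 26.9% of all genes. Those higher were 4.55%, 9.09%, 13.6% and 9.09%, against 20.6%, 13.4%, 21.1% and 18.9%. Nfe2l2, the oxidative stress factor, was lower than in lung in 46LCNEC_cell (-1.51 ± 0.07), 57SCLC_cell (-2.07 ± 0.08) and 57SCLC_allo (-1.87 ± 0.10).

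The difference between the lines in the change to allografts was called for 15 of 30 other immediate early genes in the direction of 57SCLC and for 1, Klf2 (-2.54 ± 0.50), in that of 46LCNEC. It was called for 14 of 23 AP-1 targets higher and 0 lower, for 9 of 31 upstream genes higher and 2 lower, and for 2 of 22 other AP-1 and Maf genes in each direction. In this order of lists, the shares higher were 50%, 60.9%, 29.0% and 9.09%, against 10.8% of all 18440 genes tested. Those lower were 3.33%, 0%, 6.45% and 9.09%, against 6.78%. Both shares of the other AP-1 and Maf genes, and the upstream share lower, were thus near those of all genes. Dusp5 had a difference of 3.91 ± 0.25 and Cd44, with 4 to 5 reads in the flasks, of 9.56 ± 0.19.

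Over the 15 samples, the genes with the pattern most like that of Fos were Zfp36 (Pearson r = 0.976), which encodes an mRNA decay factor, Fosb (0.961) and Swt1 (0.951), out of 13430 genes with a mean of at least 50 normalized counts. Those most like Jun were Jund (0.963), Dcun1d3 (0.942) and Ogt (0.940). Those most like Fosl1 were Dlx5 (0.989), a homeobox gene, P4hb (0.981), a chaperone of collagen synthesis, and Hhipl1 (0.979). Among the 10 genes, Junb and Egr1 had an r of 0.968, Fosl1 and Fosl2 of 0.883, and Fosl1 and Jund of -0.749. These correlations describe 15 samples in 5 groups, which share group differences, depth and scaling, and carry no test.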

How the data were processed

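RNA of 15 samples (3 in each of 5 groups) was sequenced as paired reads of 150 bases after poly-A selection. According to the methods of the authors, reads were aligned to GRCm39 with Rbowtie2 and counted per gene of GENCODE release M27 with featureCounts, without a stated strand setting or treatment of reads with several matches. The deposited signal values are gene counts that the authors divided by DESeq2 size factors, called normalized counts here. Of the nonzero values, 100% gave whole reads within a tolerance of 0.01. That tolerance was widened in proportion for high counts, where the check is weaker. Samples were grouped by the labels.

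Values were read with Python 3.11.15 and pandas 2.3.3 and tested on the log2(normalized count + 1) scale with limma 3.58.1 (R 4.3.3), as moderated tests with a mean-variance trend, on the groups compared alone, or on 12 samples for the difference between the lines. Tested genes reached 10 normalized counts in 3 or more samples, and p-values were adjusted over all of them by Benjamini-Hochberg. Calls needed an adjusted p of 0.01 or less and 1 or more on the log2 scale. Precision is limited by 3 samples a group, with 9480244 to 44876572 reads counted per sample, and floors of 3 reads cover counting error only. The fit was tested on simulated data.

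The 10 genes and the lists of related genes and cell type markers were chosen with earlier results of these data known. From each list, up to 2 called genes in each direction with the smallest adjusted p were named per comparison, and for Fos, Jun and Fosl1 the 3 genes with the highest correlation. Gene positions, exon lengths and promoters came from GENCODE release M39, which held 98.9% of the identifiers. The promoter window of 500 bases was searched after one of 250 bases had been searched. Alternatives were library size and TMM scaling, pseudocounts of 0.1 and 5, no filter, quasi-likelihood tests of edgeR 4.0.16 and tests of DESeq2 1.42.0 on the recovered reads, a model of all 15 samples, a replicate block, and leaving out each sample in turn, with the filter then met in 2 samples. Some genes that the naming rule would have given, and part of the genotype, are not reported here.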

Additional observations from a re-analysis of the deposited data

Results flagged for a closer look

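The change from cells to allografts differed between the lines for 4 of the 10 genes, by the test of the difference itself in limma over 12 samples (57SCLC change minus 46LCNEC change, log2 scale). The difference was 2.89 for Fosl1, where the change was 2.07 in 57SCLC and -0.82 in 46LCNEC. It was 2.92 for Junb, with changes of 1.81 and -1.11, and 3.27 for Egr1, with changes of 2.60 and -0.67. It was 2.04 for Maff, with changes of 1.34 and -0.70. All 3 57SCLC_allo tumors were above all 3 57SCLC_cell flasks for each of these genes, and all 3 46LCNEC_allo tumors were below the dishes for Junb alone.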

How the results depend on the processing

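Of the 10 genes, 3 were called in 46LCNEC_allo against Lung, but 7 with DESeq2 and 6 in the model of all 15 samples. The shares of all genes tested that were called there were 35.6%, 38.7% and 40.8%. Of the 4 called between the allografts, 2 were left under library size scaling and 2 in the model of all 15 samples, and of the 3 in 46LCNEC_allo against 46LCNEC_cell 1 was left in that model. Leaving out 1 sample at a time gave 2 to 6 calls in 46LCNEC_allo against Lung, 3 to 6 in 57SCLC_cell against Lung, 1 to 7 in 57SCLC_allo against Lung, 1 to 5 between the allografts, 1 to 5 in 46LCNEC_allo against 46LCNEC_cell, 5 to 7 in 46LCNEC_cell against Lung, 9 to 9 between the cells, 5 to 6 in 57SCLC_allo against 57SCLC_cell and 4 to 5 for the difference between the lines. With 1 sample left out, 27.5% to 38.7% of all genes were called in 46LCNEC_allo against Lung. Between the allografts it was 22.9% to 30.6%, and in 46LCNEC_allo against 46LCNEC_cell 14.3% to 24.3%. Against Lung it was 52.0% to 53.8% in 57SCLC_cell, 42.6% to 45.5% in 57SCLC_allo and 53.7% to 55.1% in 46LCNEC_cell. Between the cells it was 44.2% to 47.0%, in 57SCLC_allo against 57SCLC_cell 13.8% to 17.1%, and for the difference between the lines 13.7% to 19.4%. Directions turned only in genes that were not called. Against Lung, Junb in 46LCNEC_cell was 0.0097 with TMM scaling and -0.81 to 0.44 with samples left out, and Egr1 was -0.50 with edgeR, -0.54 with DESeq2 and -1.14 to 1.00. In 46LCNEC_allo against Lung, Egr1 ran from -1.81 to 0.33 and Maff from -0.0844 to 0.61. In 57SCLC_allo against Lung, Fosl2 was 0.20 with library size scaling, 0.074 with TMM, 0.065 with edgeR, 0.038 with DESeq2 and -0.10 to 0.12, and Atf3 ran from -1.59 to 0.53. Between the cells, Atf3 was 0.12 with library size scaling and -0.39 to 0.065, and between the allografts Jun ran from -0.13 to 0.38. In 46LCNEC_allo against 46LCNEC_cell, Fosl2 ran from -0.079 to 0.56, and Atf3 was 0.026 with edgeR, 0.0055 with DESeq2 and -0.98 to 0.069. The cause was not tested. Library size scaling moved the median of all genes by 0.23 in 57SCLC_cell and 0.21 in 57SCLC_allo against Lung and by 0.23 between the cells, and TMM moved it by 0.13 in 46LCNEC_cell against Lung. With the letters A, B and C as a replicate block, 9 genes were called between the cells, as without it, and each call kept its direction. Deviations of cultures with the same letter correlated at 0.0916, -0.0837 and -0.0062, and those with other letters at -0.102 to 0.118. These values show no sign that the letters pair the samples, but 3 cultures a line cannot exclude it. Tumor 275, with 9480244 reads, had the lowest depth, and all 10 genes were above 3 reads there.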
